A study of Mus musculus with 6 samples.

Results

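The keratin gene family was followed through the rib cage RNA-Seq. A list of 50 mouse keratin genes, written by symbol, was matched to the gene IDs of the count table, and 49 of the 50 were found among 55487 genes. Krt85 was not matched and was not analysed here. The libraries came from the dissected rib cages of 6 embryos at 16.5 dpc (days post coitum), cleaned of connective tissue. The 3 control embryos (E420, E434 and E435) are labelled wild type. The 3 mutant embryos (E423, E433 and E440) are labelled Col2-cre;Foxc1-/-;Foxc2-/-, in which the Col2-cre transgene, active in chondrocyte progenitors, deletes floxed copies of both forkhead genes. Keratin-expressing epithelium is therefore not the cell type in which this Cre is meant to act. The dams of the cross were homozygous for the floxed alleles of both genes, so controls also carry floxed alleles. The mice were kept on a mixed background. For its skeletal preparations the paper describes control embryos as lacking Col2-cre. If this holds for these controls, effects of the transgene and of the deletion cannot be told apart. The study's methods say that littermates were compared, but which embryos shared a litter is not given in the sources used here, and p-values measure the spread between these 6 embryos.

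Keratins are the intermediate filament proteins of epithelial cells, and each filament is built from an acidic (type I) and a basic (type II) partner. Simple epithelia make Krt8 and Krt18, the dividing basal layer of the epidermis makes Krt5 and Krt14, and cells that leave the basal layer switch to Krt1 and Krt10. Hair keratins form the hardened shaft and the sheaths around it, and cartilage and bone are not known for keratin filaments.

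The members were grouped as basal (Krt5, Krt14 and Krt15), suprabasal (Krt1, Krt2, Krt10 and Krt77), simple (Krt7, Krt8, Krt18 and Krt19) and hair keratins (23 genes), and the other 15 epithelial keratins were kept apart. The 25 type I genes lay on chromosome 11 between 99279959 and 100269871 (GRCm38), a span of 990 kb. The 23 type II genes lay together with the type I gene Krt18 on chromosome 15 between 101347444 and 102032027, a span of 685 kb. No other chromosome held a matched member. The reading frames of the classes differed in composition. Glycine took a median of 23.04% of codons in suprabasal keratins, 7.49% in simple keratins and 4.47% in keratins of the hair shaft. Cysteine, which crosslinks the shaft, took a median of 6.56% of codons in hair shaft keratins, and the 4 simple keratins had no cysteine codon.

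The sequences around the start sites of 3 members are shown because they stand for the 3 classes compared below: Krt5 for the basal layer, Krt10 for the suprabasal layers and Krt18 for simple epithelium. Each window runs from 250 bases before to 50 bases after the start of the gene in RefSeq (GRCm38.p6), and capitals mark a match to any of 4 motifs searched on both strands. The TATA box was searched as TATAAA. The letters for the factor AP-1 were TGANTCA, those for the factor AP-2 were GCCNNNGGC, and the GC box was searched as GGGCGG. The Krt5 window is chr15:101712856-101713155 on the minus strand, the Krt10 window is chr11:99389315-99389614 on the minus strand, and the Krt18 window is chr15:102027966-102028265 on the plus strand.
Krt5: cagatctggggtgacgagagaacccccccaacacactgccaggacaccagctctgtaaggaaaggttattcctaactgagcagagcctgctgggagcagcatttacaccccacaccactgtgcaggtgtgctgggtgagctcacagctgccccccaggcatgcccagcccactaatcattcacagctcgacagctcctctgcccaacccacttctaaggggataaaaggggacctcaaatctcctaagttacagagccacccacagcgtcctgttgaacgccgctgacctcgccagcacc
Krt10: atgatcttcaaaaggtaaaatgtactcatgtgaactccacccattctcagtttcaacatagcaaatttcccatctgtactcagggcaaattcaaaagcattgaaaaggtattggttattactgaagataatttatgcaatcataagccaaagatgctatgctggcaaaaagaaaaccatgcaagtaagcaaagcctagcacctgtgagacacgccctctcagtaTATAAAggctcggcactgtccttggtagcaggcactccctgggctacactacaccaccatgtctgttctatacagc
Krt18: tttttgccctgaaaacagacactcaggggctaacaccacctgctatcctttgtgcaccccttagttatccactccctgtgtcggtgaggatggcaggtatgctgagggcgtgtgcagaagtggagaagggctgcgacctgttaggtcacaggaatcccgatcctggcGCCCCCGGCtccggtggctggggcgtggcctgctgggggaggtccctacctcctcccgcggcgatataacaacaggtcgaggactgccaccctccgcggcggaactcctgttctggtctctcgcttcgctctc
In the Krt10 window TATAAA began 26 bases before the start site. The Krt18 window held the AP-2 letters GCCCCCGGC from 83 bases before the start, and the Krt5 window held a match to none of the 4 motifs. TATAAA was found in 19 of 35 windows of the 34 keratin genes in the table, and in 13.6% of all 32851 windows. The AP-1 letters were in 2 of the 35 keratin windows (7.81% of all), the AP-2 letters in 5 (16.6% of all) and the GC box in 2 (35.7% of all). These are matches of letters and do not show a bound site.

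Library totals ran from 37853988 to 47794799 counts, and levels are given as CPM, counts divided by the library's TMM-adjusted total and multiplied by 1e6. At this depth 1 count equalled between 0.0206 and 0.0254 CPM. The targeted genes were lower in all mutants: Foxc1 had between 23.1 and 36.9 CPM in controls and between 3.51 and 9.60 CPM in mutants, and Foxc2 had between 1.98 and 4.83 CPM against 0.649 to 1.14 CPM, with adjusted p = 0.235 and 0.239 from edgeR and 9.6e-07 and 0.00021 from DESeq2. The embryos of a group did not resemble each other equally in keratins. Among the 20 members with at least 100 counts in both, no member differed by more than 1.19-fold between controls E420 and E435 or by more than 1.17-fold between mutants E423 and E440. Among the 6 members with at least 100 counts in both, control E434 differed from control E420 by up to 361-fold, in Krt10, and some members under that depth in E434 differed by more, as Krt1 did (1.13 against 1519 CPM). Over the same 20 members mutant E433 differed from mutant E423 by up to 30.6-fold, in Krt23. Over all genes, chi-square per gene on the expected fragment counts was 5.05 for E420 with E435 and 2.19 for E423 with E440, above the sampling value, so the 6 libraries were kept as separate samples. Calls, and signs of printed fold changes, that turned on E434 or E433 are given with and without them. In each sentence, 3 values for controls stand in the order E420, E434 and E435, and 3 values for mutants in the order E423, E433 and E440.

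Keratin counts together made up 0.614%, 0.00499% and 0.678% of the library in controls and 2.44%, 0.340% and 2.44% in mutants. On the TMM scale this was 5910, 51.6 and 6478 CPM in controls and 25522, 3291 and 25272 CPM in mutants. A pair of mutants thus stood above every control, the third mutant lay between controls E434 and E420, and the groups overlapped. In bulk RNA, more cells of a type and more RNA per cell cannot be told apart. The second pipeline gave the same order of libraries for the summed TPM (abundance per transcript length, scaled to a fixed total) of the members, at 4372, 48.7 and 4656 in controls and 17271, 2519 and 17080 in mutants.

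**Figure D1:**
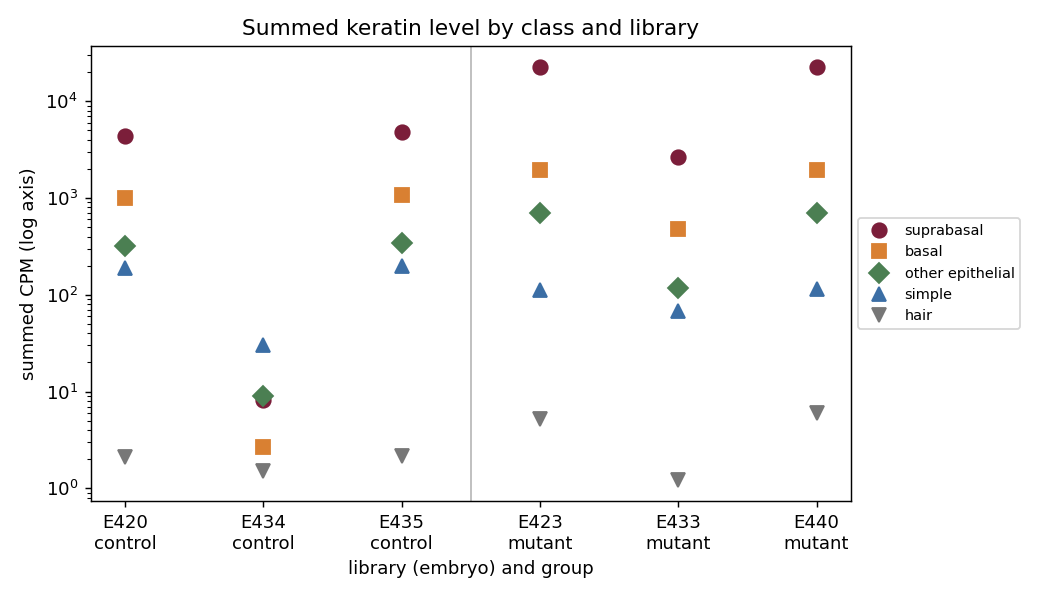
Summed CPM (log axis) of each keratin class in each of the 6 libraries, controls to the left of the line and mutants to the right; each point is 1 library. Suprabasal keratins ranged from 8.12 CPM in control E434 to 22759 CPM in mutant E423, and in E434 the simple keratins (30.4 CPM) lay above all other classes.

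Across the 6 libraries, 40 of the 49 matched keratins had at least 10 counts and were tested by edgeR's quasi-likelihood test with Benjamini-Hochberg adjustment over all 26596 genes with that depth. The 9 members below this limit were hair keratins (Krt26, Krt27, Krt39, Krt40, Krt72, Krt74, Krt81, Krt82 and Krt86). A gene was called where its adjusted p-value was below 0.1 and its log2 fold change was 1 or more in size. By this rule 0 of the 40 keratins were higher in mutants, where 0.0338% of all genes were, and 0 were lower, where 0.0301% of all genes were. An unadjusted p-value under 0.05 was found for 8 keratins (Krt12, Krt23, Krt28, Krt33a, Krt36, Krt73, Krt75 and Krt80), beside 10.6% of all genes. DESeq2's Wald test gave an adjusted p-value to 34 of the 40 and called 1 higher, Krt36 (adjusted p = 0.0112), and 0 lower, beside 1.62% and 0.557% of all genes. In 2 keratins, Krt33a and Krt36, every mutant library lay above every control, as in 6.81% of all genes. In 0 keratins did every mutant lie below every control, as in 8.21% of all genes.

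The log2 fold changes of the 40 tested members had a median of 1.01, beside 0.01 over all genes tested, with 29 above 0 and 11 below. Members that entered through 1 group alone are among them, so the median describes the members tested and is no evidence of a shift. It was 0.74 without control E434 and 1.56 without mutant E433. Control E434 was the lowest library for 31 of the 40, mutants E423 or E440 were the highest for 27, and controls E420 or E435 were the highest for 9. The calls depended on the same libraries. Without E434, 1 keratin was lower, Krt19, beside 0.0346% of all genes, and 0 were higher, beside 0.0308%. Without E433, 7 keratins were higher (Krt12, Krt23, Krt28, Krt33a, Krt36, Krt73 and Krt80), beside 2.84% of all genes, and 0 were lower, beside 1.37%.

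**Figure D2:**
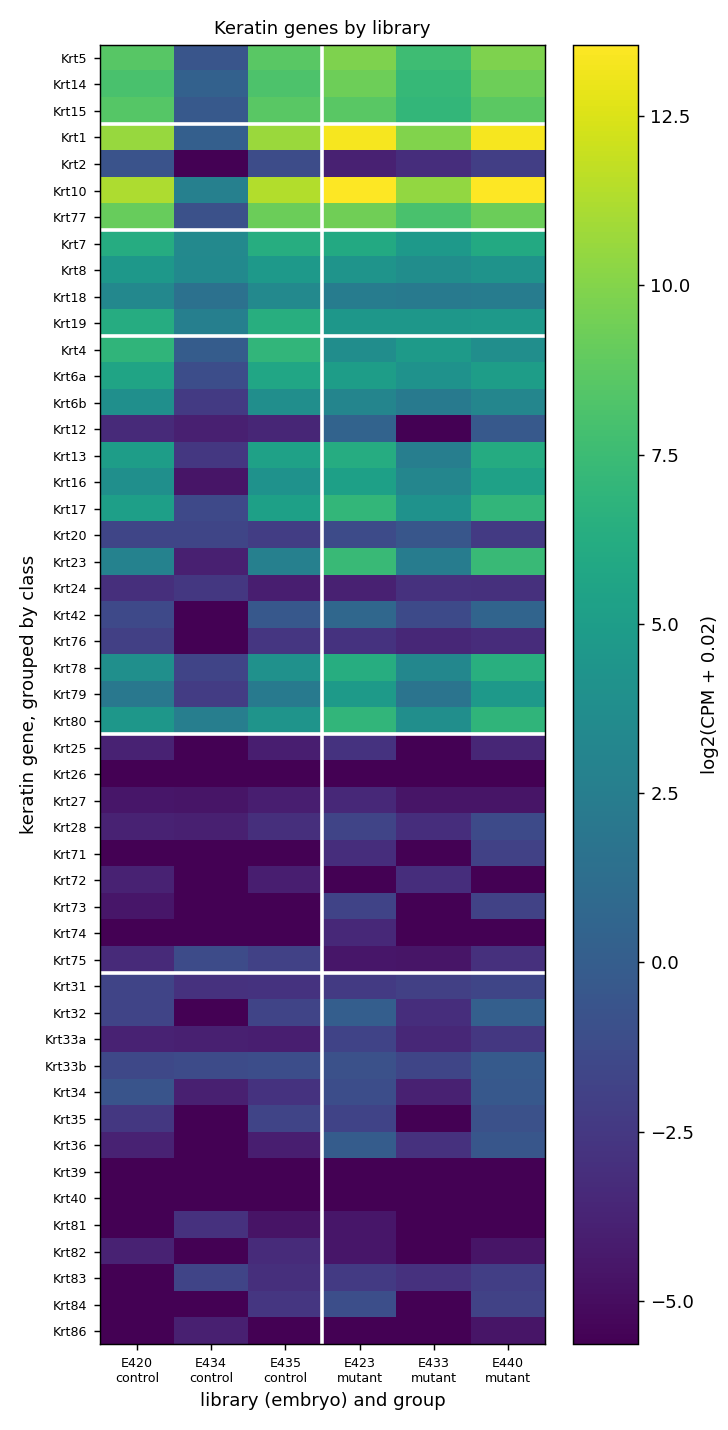
Level of the 49 matched keratins in each library as log2(CPM + 0.02), from dark (low) to yellow (high); white lines separate the classes (from the top basal, suprabasal, simple, other epithelial, inner root sheath and companion layer, and hair shaft) and the 2 groups. The column of control E434 is dark through the basal and suprabasal rows, and most hair keratins are at or near 0 in every library.

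Basal keratins came to 1005, 2.69 and 1084 CPM in controls and to 1939, 477 and 1934 CPM in mutants. Krt5, the type II keratin of the basal layer, had 375, 0.640 and 391 CPM in controls and 900, 193 and 896 CPM in mutants. Its type I partner Krt14 had 263, 1.24 and 288 CPM in controls and 642, 149 and 625 CPM in mutants. In both genes mutants E423 and E440 were the highest libraries, and mutant E433 lay below controls E420 and E435, so the groups overlapped. The log2 fold change was 1.37 for Krt5 (standard error, SE, 1.57, adjusted p = 0.785 from edgeR) and 1.36 for Krt14 (SE 1.43, adjusted p = 0.766). Krt15, a second type I keratin of basal cells, had 367, 0.816 and 404 CPM in controls and 397, 136 and 412 CPM in mutants. Unlike Krt5 and Krt14, Krt15 was about level between controls E420 and E435 and mutants E423 and E440. For Krt15 the log2 fold change was 0.29 (SE 1.48, adjusted p = 0.959), and it turned to -0.29 without control E434.

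Suprabasal keratins were the bulk of the keratin RNA, with 4394, 8.12 and 4853 CPM in controls and 22759, 2629 and 22511 CPM in mutants. They held 74.4% and 74.9% of keratin counts in controls E420 and E435, 89.2% and 89.1% in mutants E423 and E440, 79.9% in mutant E433 and 15.7% in control E434. Krt1, the type II keratin of cells that have left the basal layer, had 1519, 1.13 and 1648 CPM in controls and 10187, 972 and 9856 CPM in mutants. Krt10, the type I partner of Krt1, had 2332, 6.46 and 2594 CPM in controls and 11907, 1397 and 12044 CPM in mutants. Mutants E423 and E440 were the highest libraries for both genes, and E433 lay below controls E420 and E435. The log2 fold change was 2.73 for Krt1 (SE 1.87, adjusted p = 0.639) and 2.36 for Krt10 (SE 1.66, adjusted p = 0.647). Per kilobase of exon, Krt10 was the most abundant keratin in every library but control E434, where Krt8 and Krt19 lay above it, with 5632 CPM per kb in E423 and 3.06 CPM per kb in E434. On the TPM of the second pipeline Krt10 was above them in E434 too, at 12.8 TPM against 8.51 for Krt8 and 8.39 for Krt19.

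The remaining suprabasal members did not follow Krt1 and Krt10. Krt77, a type II keratin of the suprabasal epidermis, had 543, 0.529 and 611 CPM in controls and 665, 259 and 612 CPM in mutants. Its log2 fold change of 0.41 (SE 1.57, adjusted p = 0.943) became -0.17 without control E434. Krt2, a type II keratin of the upper epidermis, was barely present, with 23, 0 and 20 counts in controls and 2, 4 and 10 counts in mutants. Controls E420 and E435 were the highest libraries for Krt2, and control E434 the lowest. For Krt2 the log2 fold change was -1.43 (SE 1.15, adjusted p = 0.694), and it moved to -0.77 without control E420, -2.01 without control E434 and -2.18 without mutant E440.

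Simple keratins, by contrast, were highest in controls. They came to 189, 30.4 and 200 CPM in controls and 112, 67.2 and 115 CPM in mutants, and each of the 4 was highest in E420 or E435 and lowest in E434. Krt8, the type II keratin of simple epithelia, had 24.5, 10.9 and 25.1 CPM in controls and 19.6, 13.8 and 18.2 CPM in mutants. The log2 fold change of Krt8 was -0.23 (SE 0.32, adjusted p = 0.827). Krt18, the type I partner of Krt8, had 10.1, 2.78 and 10.4 CPM in controls and 5.24, 4.69 and 5.35 CPM in mutants, with a log2 fold change of -0.61 (SE 0.46, adjusted p = 0.673). All 3 mutants lay inside the range of the controls in both genes. Krt7, a type II keratin of ducts and of mesothelium, had 77.5, 10.5 and 79.5 CPM in controls and 63.6, 26.0 and 64.6 CPM in mutants. The log2 fold change of Krt7 was -0.12 (SE 0.72, adjusted p = 0.966), and its sign turned when control E420, control E435 or mutant E433 was left out.

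Krt19, a type I keratin of simple and ductal epithelium, had 76.7, 6.15 and 84.6 CPM in controls and 23.2, 22.7 and 27.1 CPM in mutants. The 3 mutants lay close together, below controls E420 and E435 and above control E434. Over all libraries the log2 fold change was -1.20 (SE 0.80, adjusted p = 0.631). Without E434 it was -1.73 (SE 0.11, adjusted p = 0.0660), past both limits, so the call for Krt19 turned on that 1 control.

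**Figure D3:**
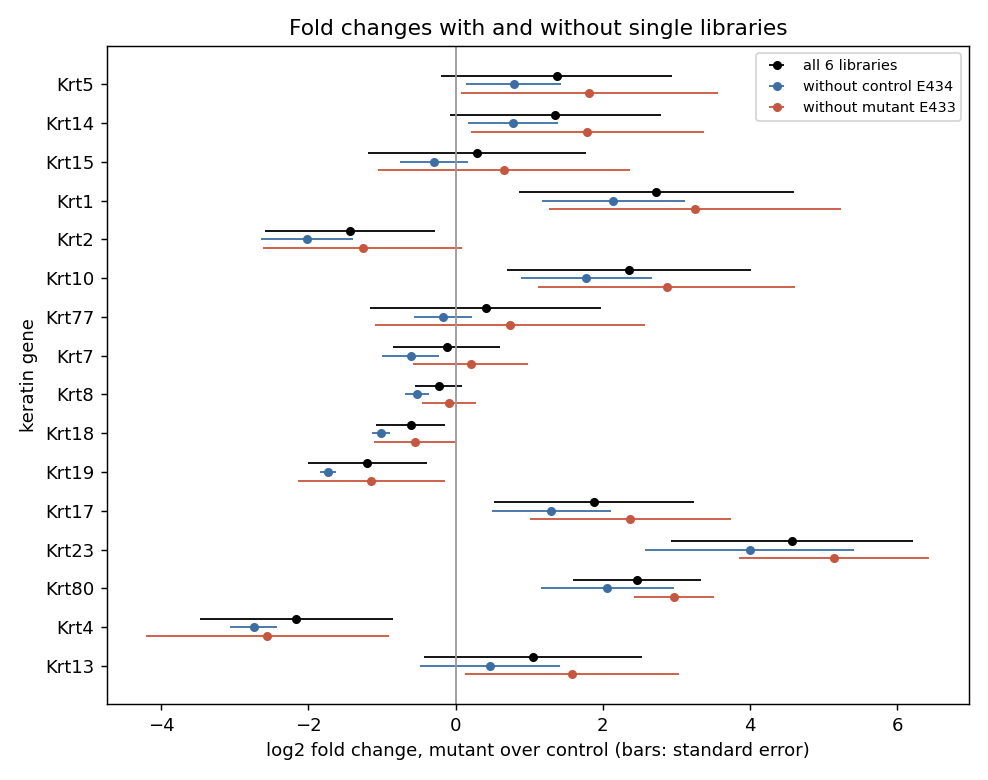
Log2 fold change of mutant over control for the 16 keratins given with a standard error, from edgeR with all 6 libraries (black), without control E434 (blue) and without mutant E433 (red); points are estimates and bars the standard error. Leaving out E434 shortens the bar of Krt19 from 0.80 to 0.11. Krt1, Krt10, Krt17, Krt23 and Krt80 stay to the right of 0 with their bars in all 3 fits, and Krt4 and Krt19 stay to the left.

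The 5 most abundant of the remaining keratins were Krt17, Krt23, Krt80, Krt4 and Krt13. Krt23, a type I keratin of epithelial cells, had 7.41, 0.0441 and 6.64 CPM in controls and 163, 5.34 and 167 CPM in mutants. Mutants E423 and E440 stood far above all other libraries, while mutant E433 lay below controls E420 and E435. The log2 fold change of Krt23 was 4.58 (SE 1.64, adjusted p = 0.429), and 5.15 without E433 (adjusted p = 0.0809). Krt80, a type II keratin of differentiating epithelia, had 22.7, 5.82 and 19.6 CPM in controls and 129, 14.3 and 122 CPM in mutants. As for Krt23, only mutants E423 and E440 exceeded every control, and mutant E433 lay above control E434 alone. The log2 fold change of Krt80 was 2.46 (SE 0.87, adjusted p = 0.428), and 2.97 without E433 (adjusted p = 0.0403).

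Krt17, a type I keratin of skin appendages and wounded epidermis, had 37.5, 0.353 and 38.2 CPM in controls and 132, 18.03 and 130 CPM in mutants, with a log2 fold change of 1.88 (SE 1.36, adjusted p = 0.658). Krt4 and Krt13 are the partners of the suprabasal layers of internal stratified epithelia. Krt4 had 121, 0.949 and 128 CPM in controls and 13.5, 27.5 and 14.7 CPM in mutants, with a log2 fold change of -2.16 (SE 1.31, adjusted p = 0.591). Krt13 had 33.8, 0.154 and 40.4 CPM in controls and 75.0, 5.89 and 73.3 CPM in mutants, with a log2 fold change of 1.05 (SE 1.48, adjusted p = 0.827). The partners thus had fold changes of opposite sign, and for both the groups overlapped.

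Among the other epithelial keratins, Krt78 had 15.2, 0.287 and 16.6 CPM in controls and 81.9, 9.44 and 86.4 CPM in mutants. Krt79 had 4.12, 0.199 and 4.62 CPM in controls and 27.8, 3.32 and 27.0 CPM in mutants. In both type II genes, as in Krt80, mutants E423 and E440 stood above all other libraries. Krt6a, Krt6b and Krt16, keratins of wounded and rapidly renewing epithelia, had between 14.7 and 52.1 CPM in controls E420 and E435 and at most 0.441 CPM in control E434. Krt16 was highest in mutants E423 and E440, at 39.5 and 40.3 CPM, while Krt6a and Krt6b were highest in controls E420 or E435. Krt12, the type I keratin of the cornea, had 3, 2 and 3 counts in controls and 56, 0 and 37 counts in mutants, a ratio of 11.8 of the summed levels with a 95% counting interval from 5.76 to 28.2. Of its exon bases, 54.4% overlap A830036E02Rik, and the counting did not use strand. Krt20, Krt24, Krt42 and Krt76 had at most 69 counts in any library.

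Hair keratins were close to the limit of detection. The 23 genes together had 82, 68 and 106 counts in controls and 219, 52 and 276 counts in mutants, or 2.09, 1.5 and 2.18 CPM against 5.27, 1.21 and 5.98 CPM. The sum of this class differed from the others in that control E434 was near controls E420 and E435. Most of its counts in E434 were of Krt75, Krt33b and Krt83 (18, 18 and 13), while Krt32, Krt35 and Krt36 were at 0 there. Krt36, a type I keratin, had 2, 0 and 2 counts in controls and 39, 5 and 31 counts in mutants, a ratio of 19.1 of the summed levels (95% counting interval 7.15 to 71.9). Krt33a, a type I keratin of the hair shaft, had 2 counts in each control and 11, 3 and 7 counts in mutants, a ratio of 3.56 (interval 1.39 to 10.8). Krt73, of the inner root sheath, had 1, 0 and 0 counts in controls and 11, 0 and 12 counts in mutants, a ratio of 23.4 (interval 3.80 to 964). These members were taken by the rule given for Krt12, which favours ratios above 1. The intervals cover counting error only, and not the spread between embryos.

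A further inner root sheath keratin, Krt71, had 0 counts in all 3 controls and 4, 0 and 11 counts in mutants. Its summed level in mutants was at least 5.09-fold higher than a floor of 3 counts over the control group, and the lower 95% counting limit of the ratio was 3.65. Krt28, of the inner root sheath, had 2, 2 and 5 counts in controls and 12, 4 and 17 counts in mutants. Krt75, of the companion layer, went the other way, with 3, 18 and 12 counts in controls and 1, 1 and 5 counts in mutants, although the groups overlapped. Krt32 had 11, 0 and 14 counts in controls and 43, 4 and 51 counts in mutants, Krt33b had 13, 18 and 22 against 22, 13 and 40, and Krt31 had 11, 5 and 6 against 7, 10 and 14. Krt34, Krt35 and Krt83, of the hair shaft, had at most 36 counts in any library. Krt84 had 0, 0 and 7 counts in controls and 20, 0 and 12 counts in mutants, and Krt25, of the inner root sheath, had at most 5 counts. By the same rule as for Krt12, the ratio of summed levels was 2.04 for Krt25 (95% counting interval 0.545 to 9.24). For Krt72 it was 1.02 (interval 0.190 to 5.46), and both intervals include 1. Krt26, Krt39 and Krt40 had no count in any library.

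Ratios between members within a library cancel a scaling that both members share, but not a change of 1 class against another. Across classes a ratio can differ with the keratin level. That of Krt19 to Krt14 was 4.72 in control E434, the lowest in keratin, and at most 0.278 elsewhere. The ratios were taken on CPM per kilobase of exon, for 16 pairs chosen with the levels known. Those from control E434 rest on few counts (29 for Krt5, 56 for Krt14 and 51 for Krt1). The ratio of suprabasal Krt1 to basal Krt5 was 2.02, 0.875 and 2.09 in controls and 5.63, 2.51 and 5.47 in mutants, and on TPM it was 3.31, 1.5 and 3.43 against 9.29, 4.13 and 8.89. That of Krt10 to Krt14 was 7.37, 4.35 and 7.48 in controls and 15.4, 7.82 and 16.0 in mutants. Every mutant lay above every control in both, by a narrow margin for E433, and on the TPM of the second pipeline the groups overlapped for Krt10 to Krt14 (8.13, 9.44 and 8.21 against 16.0, 8.79 and 16.9). The ratio of Krt1 to Krt10 was also higher in every mutant, with 0.312, 0.083 and 0.304 in controls and 0.410, 0.333 and 0.392 in mutants. The basal partners kept a ratio of Krt5 to Krt14 between 1.04 and 1.15 in 5 libraries, with 0.414 in E434.

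The ratios of Krt77 to Krt1, Krt4 to Krt5, Krt19 to Krt14 and Krt13 to Krt14 were lower in every mutant than in every control. The ratio of Krt77 to Krt1 was 0.538, 0.709 and 0.559 in controls and 0.098, 0.401 and 0.093 in mutants. That of Krt4 to Krt5 was 0.331, 1.53 and 0.336 in controls and 0.015, 0.147 and 0.017 in mutants. The ratio of Krt19 to Krt14 was 0.276, 4.72 and 0.278 in controls and 0.034, 0.145 and 0.041 in mutants. In these 3, E433 was the mutant nearest to the controls. For Krt13 to Krt14 the gap was narrow, with 0.124, 0.121 and 0.135 in controls and 0.113, 0.0383 and 0.113 in mutants. Control E434 had 7 counts of Krt13. On the TPM of the second pipeline the groups overlapped for this pair (0.126, 0.0889 and 0.135 against 0.111, 0.0385 and 0.110). The ratio of Krt15 to Krt14 was 1.39, 0.657 and 1.39 in controls and 0.614, 0.911 and 0.656 in mutants, and the groups overlapped. With 3 embryos a group, an exact 2-sided permutation test of a single ratio cannot give a p-value under 0.1, and no test of the ratios was run. The ratio of Krt23 to Krt14 was higher in mutants E423 and E440, at 0.285 and 0.301, and about level between mutant E433 (0.0403) and control E434 (0.0401). In all remaining pairs the groups overlapped: Krt80, Krt78 and Krt79 to Krt5, Krt17 to Krt14, and Krt8 and Krt7 to Krt18. How often ratios of other genes separate the groups was not computed, so the pairs without overlap have no background share beside them.

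**Figure D4:**
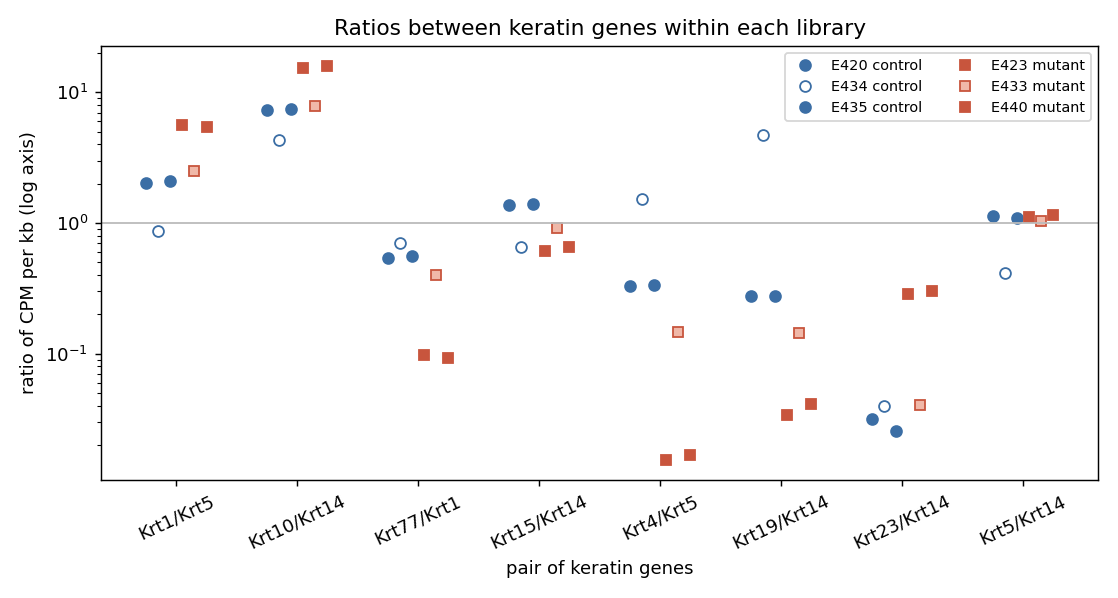
Ratio of the levels per kilobase (log axis) of 8 pairs of keratins in each library; circles are controls (open, E434) and squares mutants (pale, E433). Mutants E423 and E440 fall together in each pair, and E433 lies between them and controls E420 and E435 in all pairs but Krt5/Krt14.

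Of 5 lists of genes that work beside keratins, 3 had the order of libraries of the suprabasal keratins, lowest in control E434 and highest in mutants E423 and E440: desmosomes, cross-linking proteins and regulators. The members of no list, among these 5 and the marker lists that follow, passed the limits in edgeR. For 13 desmosome genes, which anchor keratin filaments at cell contacts, the summed level was 1983, 60.8 and 1880 CPM in controls and 3901, 842 and 3780 CPM in mutants, and 12 of 13 were lowest in control E434. For 9 plakins and cross-linking proteins of the cornified envelope, the sums were 2215, 17.5 and 2451 CPM in controls and 9603, 1228 and 9860 CPM in mutants. In that list DESeq2 called Flg, the filament-aggregating protein filaggrin, higher in mutants, beside 1.62% of all genes. Flg had 4, 0 and 1 counts in controls and 22712, 5 and 22215 counts in mutants, so mutant E433 was close to the controls (edgeR adjusted p = 0.326). For 9 hemidesmosome genes, which tie basal cells to the basement membrane, the sums were 763, 875 and 672 CPM in controls and 1000, 836 and 916 CPM in mutants, so E434 was not low. For 11 regulators of keratin genes the sums were 355, 90.3 and 345 CPM in controls and 563, 191 and 558 CPM in mutants, and all 11 were lowest in E434. For 16 intermediate filament genes that are not keratins, among them Vim and Des, the sums were 2983, 3621 and 3050 CPM in controls and 3776, 3350 and 3677 CPM in mutants, with a median log2 fold change of -0.02.

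Marker lists of the cells the dissected tissue could hold were summed in the same way. Markers of basal keratinocytes (6 genes) came to 703, 22.3 and 706 CPM in controls and 1160, 285 and 1163 CPM in mutants, and those of suprabasal keratinocytes (8 genes) to 1330, 13.7 and 1741 CPM against 5753, 739 and 6100 CPM. All 14 were lowest in control E434, where Dsg1a, Dsc1 and Flg were at 0. Periderm markers (4 genes) had 276, 1.96 and 281 CPM against 441, 100 and 432.6 CPM, general epithelial markers (5 genes) had 184, 3.44 and 183 CPM against 295, 76.0 and 281 CPM, and hair follicle markers (8 genes) had 23.3, 7.81 and 21.9 CPM against 56.3, 12.7 and 57.0 CPM. Melanocyte markers (4 genes), of a pigment cell of skin, had 10.9, 1.24 and 9.89 CPM against 32.3, 9.81 and 30.9 CPM, with Dct, Tyrp1 and Mlana at 0 in E434. Each of these sums was lowest in E434 and highest in mutants E423 and E440, as were the basal and suprabasal keratins, and the part of skin cells in the keratin values was not tested.

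Mesothelial markers (6 genes), of the lining of the chest cavity, had 137, 40.0 and 139 CPM in controls and 98.0, 51.97 and 100 CPM in mutants. Their sum had the order of libraries of the simple keratins, but only 3 of the 6 were lowest in control E434. The log2 fold change was above 0 for 3 of these 6, while all 4 simple keratins were below 0. Cartilage markers (5 genes) ran against the epidermal keratins, with 817, 17449 and 764 CPM in controls and 251, 6213 and 236 CPM in mutants. Bone markers (5 genes) had 12061, 16358 and 11284 CPM against 8284, 8064 and 7890 CPM, and skeletal muscle markers (5 genes) had 8405, 14456 and 8424 CPM against 18671, 11127 and 17941 CPM. Hepatocyte markers (6 genes) were highest in mutant E433, at 586 CPM, and ranged from 29.2 to 46.0 CPM elsewhere. Markers of lung epithelium (4 genes) stayed at most 1.10 CPM, thymic epithelium (3 genes) at most 6.25 CPM, and the 4 notochord genes found had between 102 and 218 CPM, nearly all of it Cd24a, with Noto at 0 in every library. DESeq2 also called Calml3 of the suprabasal keratinocyte list, Tyrp1 of the melanocyte list and Serpina1a of the hepatocyte list higher in mutants, beside 1.62% of all genes, and Bglap, Spp1 and Dmp1 of the bone list lower, beside 0.557%. Serpina1a had 4, 23 and 7 counts in controls and 16, 245 and 29 counts in mutants, so E433 held most of it, and Calml3 was high only in mutants E423 and E440 (237 and 242 CPM, beside 27.1 CPM in E433 and at most 31.1 CPM in controls). Whether the tissue makeup of the libraries accounts for the keratin values was not tested.

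Some members share sequence with others, which limits what their counts can say. Of the 42-base windows of Krt6a, the length of a read, 59.2% also occur in another gene, and the shares are 52.8% for Krt6b, 42.8% for Krt16, 31.8% for Krt8, 18.95% for Krt14, 13.3% for Krt5 and 44.1% for Krt12. The reading frames of Krt6a and Krt6b are 97.8% identical, those of Krt14 and Krt16 86.2%, and those of Krt5 and Krt14, partners of different type, 59.4%. The featureCounts counts were divided by 2 times the RSEM expected counts, since the first counts both ends of a fragment. The result was 12.8 for Krt6b, 6.95 for Krt16, 25.4 for Krt42 and 0.395 for Krt12, and it lay between 0.8 and 1.2 for 22 of the 30 members with at least 50 counts. Krt42 shares only 1.39% of its windows and none of its exon bases with another gene, so shared windows of this length do not go with its high ratio. The levels of Krt6a, Krt6b, Krt16, Krt42 and Krt12 are uncertain, while the summed counts of Krt5, Krt14, Krt1, Krt10 and Krt8 lay within the range from 0.8 to 1.2. Levels per length differed more, as the ratio of Krt1 to Krt5 did.

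**Figure D5:**
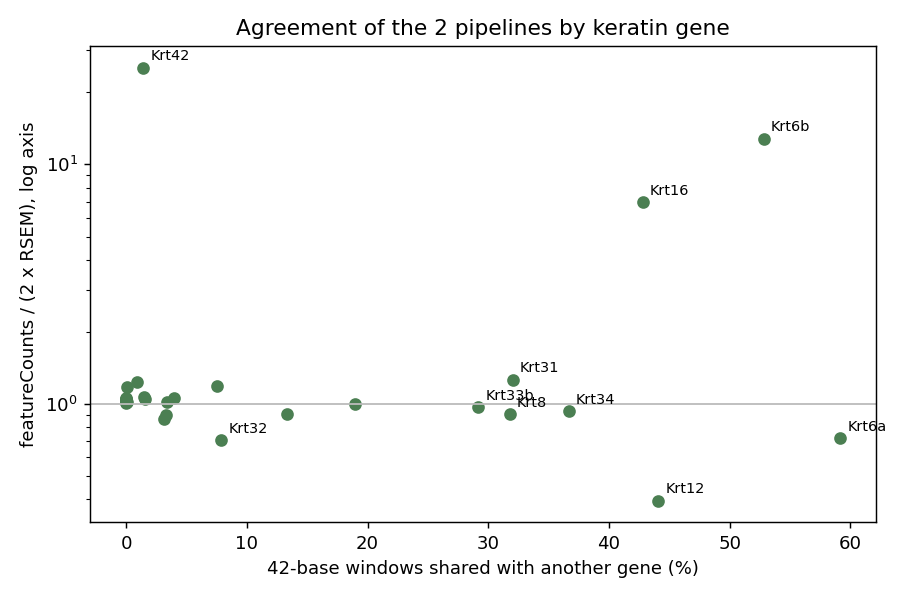
Ratio of featureCounts counts to 2 times RSEM expected counts (log axis) against the share of 42-base windows found in another gene, for the 30 keratins with at least 50 counts; each point is 1 gene and the line marks a ratio of 1. Krt42, Krt6b and Krt16 stand far above the line and Krt12 below it.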

How the data were processed

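The authors sequenced rib cage RNA of 3 control and 3 mutant embryos from stranded mRNA libraries read for 42 bases at each end. The authors aligned reads to GRCm38 with HISAT2 2.1.0 and deposited counts per gene from featureCounts 1.6.0, unnormalized, with primary alignments only, each end counted on its own and strand not used. The authors also deposited expected counts and TPM values per gene from STAR 2.7.6 and RSEM 1.2.31. Comparison tables from DESeq2 1.26.0, with the authors' fold changes and p-values and 12 columns of per-sample values, were not used.

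Groups were taken from the labels. The members and all gene lists, classes, motifs and ratios were chosen with earlier results of these data known. The split of the non-basal members into other epithelial, inner root sheath and companion layer, and hair shaft keratins was made for this report. All keratins could be named, with fold changes for the basal, suprabasal and simple classes and the 5 other keratins with the highest mean CPM, and of the lists the most abundant members. Members outside this rule that were named for a value of 0 or a DESeq2 call were chosen after their values were seen.

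Genes with at least 10 summed counts entered edgeR 4.0.16 under R 4.3.3, with TMM factors, the functions glmQLFit and glmQLFTest, mutant against control over all genes, and Benjamini-Hochberg adjustment. DESeq2 1.42.0, its size factors, other filters and limits, a robust fit, RSEM expected counts rounded to whole numbers, and leaving out each library were alternatives. Summing the close libraries was added after the data were seen. The fits were tested on simulated data. The mutant over control fold change has as standard error its size divided by the square root of F. Gene models were those of GENCODE vM21 on the authors' build, and promoter windows came from RefSeq. Totals of 37853988 to 47794799 counts put 3 counts at between 0.0618 and 0.0763 CPM.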

Additional observations from a re-analysis of the deposited data

How the results depend on the processing

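Among the alternatives, the number of keratins called higher in mutants moved from 0 to 1 with DESeq2's Wald test. Leaving out single libraries gave between 0 and 7 keratins higher (7 without mutant E433) and between 0 and 1 lower (1 without control E434). DESeq2's size factors, no low-count filter, filterByExpr, a robust fit, RSEM expected counts, the summed close libraries, and the other limits on the adjusted p-value and fold change left both numbers at 0. Log2 fold changes turned sign for Krt15 (-0.29 without E434), Krt77 (-0.17 without E434) and Krt7 (0.0167 with the close libraries summed). Over the fits that left out 1 library, Krt15 ranged from -0.29 to 0.78, Krt77 from -0.17 to 0.92 and Krt7 from -0.61 to 0.23, above 0 without E420, E435 or E433. In the other 13 keratins given with a fold change the sign held under every alternative run. Their size still moved. Without E434, Krt4 went from -2.16 to -2.74 and Krt18 from -0.61 to -1.01, while Krt5 fell from 1.37 to 0.79 and Krt14 from 1.36 to 0.78. The causes were not tested. No paired analysis was possible because the labels carry no replicate numbers and the litter of each embryo is not given (the numbers used here follow the order of the samples). Depth limited the hair keratins most, since among those 23 genes only Krt32 reached 50 counts in any library.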
